A study of Mus musculus with 4 samples.

Results

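The genes described here encode dystrophin, its paralog utrophin and the membrane and cytoplasmic proteins that assemble around them in muscle. They were chosen by symbol, as the rows named Dmd, Utrn, Sgca, Sgcb, Sgcd, Dag1, Sspn or Dtna. Of these 8 symbols, 6 were found in both tables, among 10791 symbols listed for heart, 10352 for tibialis anterior (TA) and 9906 for both. Sgca and Sgcb, which encode alpha- and beta-sarcoglycan, are not analysed here. Ribosome-protected fragments (RPF), stretches of mRNA left after nuclease digestion because a ribosome covered them, and total RNA depleted of ribosomal RNA were sequenced from heart and from TA, a fast hindlimb muscle. All tissue came from untreated 10-week-old C57BL/6J males, and within a tissue the RPF and RNA fractions were taken from the same lysate. The sources used here do not give the number of animals or say whether they were pooled. There were 4 libraries, 1 per tissue and kind, so the differences below were not checked against replicates and carry no p-values.

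Dystrophin links the actin cytoskeleton under the muscle membrane to dystroglycan, which binds laminin in the surrounding matrix. The sarcoglycans and sarcospan form a membrane subcomplex that steadies this link, and dystrobrevin and the syntrophins attach signalling proteins to its inner face. Loss of dystrophin causes Duchenne muscular dystrophy with disease of skeletal muscle and heart. Utrophin can take the place of dystrophin at the membrane, and in healthy adult muscle fibres it is known for its place at the neuromuscular junction, while vessels and other cells also make it.

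Each gene was represented by 1 RefSeq transcript model, and its reads were split at the ends of the reading frame into coding sequence, 5'UTR and 3'UTR. The coding lengths in the tables were 11031 nt for Dmd, 10287 for Utrn, 2676 for Dag1, 2043 for Dtna, 864 for Sgcd and 645 for Sspn. For each of the 6 genes, the table's coding length was 6 nt shorter than the reading frame of the matching GENCODE M21 transcript with its start and stop codons. In that annotation the frame encodes 3678 amino acids in Dmd, spread over a transcript of 79 exons on chromosome X, and 3430 in Utrn, with 74 exons on chromosome 10. Dag1 lies on chromosome 9, Sgcd on 11 and Sspn on 6. UTR lengths were the same in Utrn and Dag1 but not in all members. The 3'UTR of Dmd was 2568 nt here against 3659 in that annotation, and its 5'UTR 247 against 214. For the 5'UTR it was 49 nt against 269 in Sgcd, 27 against 52 in Sspn and 339 against 312 in Dtna. UTR densities below use the deposited lengths, so they need not cover the whole annotated UTR. Since footprints are compared below on either side of the stop codon, the last 30 bases of 5 frames are shown here, read from the GENCODE M21 transcripts (GRCm38), with the stop codon in capitals.
Dmd: ggaaagccaatgagagaggacacaatgTAG
Utrn: aatgtccccagcaggccacaggcaatgTGA
Sgcd: tgtcagataaacacaagtgtctgccttTGA
Dag1: cgatcaccccctccgtatgttccccctTAA
Sspn: gcttctgatggccagctaccaaaggccTAA
The paralogs Dmd and Utrn ended in different stop codons, TAG and TGA.

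The RPF libraries had 28115689 (heart) and 28599084 (TA) reads in coding sequence and the RNA libraries 9287355 and 16048086, and the members had between 312 and 13634 coding reads each. Values are RPM, named in the tables as reads per 1000000 mapped reads. The coding values alone summed to between 993831 and 998118 RPM and all 3 parts to between 1014489 and 1391548 RPM, so the values were scaled to a total near that of the coding reads. Intervals are 95% and cover counting error only. The tissue labels were checked against markers. All 10 cardiac markers were listed in heart, with a summed coding RNA of 110871 RPM against 248 in TA, and all 11 fast skeletal markers were listed in TA, with 210575 RPM against 182 in heart. The median of 9843 genes was higher in heart than in TA by 0.70 in RNA and 0.60 in RPF on the log2 scale. For the members, differences between the tissues are therefore also given relative to that median. Tissue ratios of other genes are given on the scale of the tables only.

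Levels of different genes were compared per kilobase of coding sequence. In heart, Dag1, which encodes both dystroglycan subunits, was the highest member in RNA at 189 RPM per kilobase. Sgcd, delta-sarcoglycan, followed at 103, Dmd at 86.4, the tetraspan protein gene Sspn at 77.0, Utrn at 42.8 and Dtna, alpha-dystrobrevin, at 38.9. In this heart RNA library no pair of neighbours in the order had a ratio whose interval included 1. In TA, coding RNA per kilobase was 76.8 for Dmd, 75.8 for Sgcd and 70.9 for Dag1, and these neighbours did not differ beyond counting error. Below them came Dtna at 51.3, Sspn at 30.0 and Utrn at 12.9.

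The order in RPF differed from that in RNA in both tissues. In heart, Dag1 stood at 179 RPM per kilobase of RPF, Sspn at 70.4, Sgcd at 65.6, Dtna at 40.9, Dmd at 23.9 and Utrn at 12.0. In TA, Dag1 stood at 85.9, Dtna at 62.4, Sgcd at 52.4, Sspn at 23.9, Dmd at 22.7 and Utrn at 6.41. Sspn and Sgcd in heart RPF, and Sspn and Dmd in TA RPF, could not be separated beyond counting error. Dmd was thus the third of 6 in heart RNA and the first in TA RNA, where Sgcd was not separated from it and Dag1 was below it (0.924 of Dmd, interval 0.888 to 0.961), but the fifth in RPF in both tissues. The highest member exceeded the lowest 4.85-fold in heart RNA and 15.0-fold in heart RPF, and 5.94-fold and 13.4-fold in TA.

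**Figure D1:**
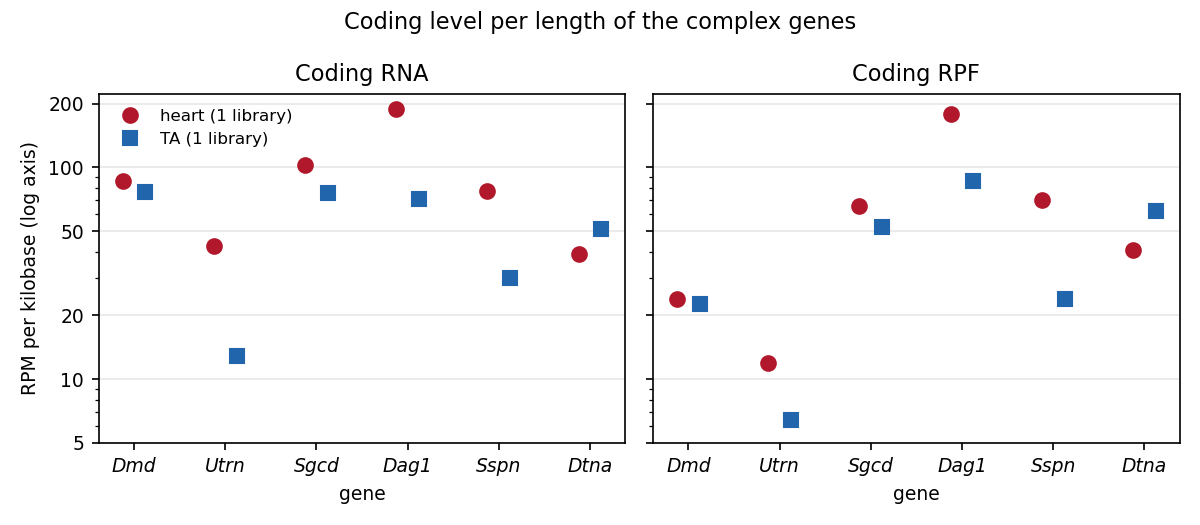
Coding RNA (left) and coding RPF (right) of the 6 genes in RPM per kilobase on a log axis, with 1 point per library (circles, heart; squares, TA). Dmd has nearly the same level in both tissues, Utrn, Dag1 and Sspn are higher in heart and Dtna is higher in TA.

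The first comparison asked how the members' mRNA and footprints differed between heart and TA. Fold values here are on the scale of log2(RPM + 0.1). With at least 2-fold as the rule of size, Utrn, Dag1 and Sspn had more RNA in heart, and Dag1 and Sspn also had more RPF. No member was at least 2-fold lower in heart in either kind of library. In RNA, 3 of 6 members were at least 2-fold higher in heart, where 35% of all 9843 genes were, and 3.88% of genes were at least 2-fold lower. In RPF, 2 of 6 members were at least 2-fold higher, beside 30.1% of genes, and 5.06% of genes were at least 2-fold lower. Relative to the median gene, 1 member was at least 2-fold higher in RNA (Utrn) and 1 lower (Dtna), beside 13.5% and 10.4% of genes. In RPF none was higher and 1 was lower (Dtna) on that scale, beside 11.9% and 12% of genes. The members' median log2 ratio was 0.89 in RNA and 0.61 in RPF, close to the all-gene medians.

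Dmd had coding RNA of 953.50 RPM in heart and 846.85 RPM in TA. Its RPF was 263.10 RPM in heart and 250.16 RPM in TA. Both pairs lay close together, with a log2 ratio of 0.17 in RNA (interval 0.13 to 0.21) and 0.07 in RPF (0.03 to 0.12), the smallest differences among the members on the scale of the tables. Relative to the median gene Dmd was at -0.53 in both RNA and RPF, farther from 0 than Sgcd, so its direction and its place among the members depended on the scaling.

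Utrn had coding RNA of 439.77 RPM in heart and 132.84 RPM in TA, a 3.31-fold difference (log2 1.73, interval 1.65 to 1.80; 1.03 relative to the median gene). Its RPF was 123.07 RPM in heart and 65.97 RPM in TA, a 1.86-fold difference (log2 0.90, interval 0.82 to 0.98; 0.30 relative to the median gene). Utrn had the largest tissue difference in RNA among the members on the scale of the tables, whereas Dtna, at -1.09, had it relative to the median gene. The difference of Utrn in RPF was smaller than in RNA. The ratio of Utrn to Dmd within a library does not depend on how libraries are scaled. Per kilobase, Utrn RNA was 0.495 of Dmd RNA in heart (interval 0.477 to 0.513) and 0.168 in TA (0.161 to 0.176), which differ 2.94-fold (2.77 to 3.12). The same ratio in RPF was 0.502 in heart (0.482 to 0.522) and 0.283 in TA (0.269 to 0.297), a 1.77-fold difference (1.66 to 1.89).

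Dag1 had 504.95 RPM of RNA in heart against 189.79 RPM in TA (log2 1.41, interval 1.35 to 1.48). Its RPF was 479.16 RPM in heart and 229.97 RPM in TA (log2 1.06, interval 1.02 to 1.10). Sspn had 49.66 RPM of RNA in heart against 19.38 RPM in TA (log2 1.35, interval 1.15 to 1.57). Sspn RPF was 45.38 RPM in heart and 15.39 RPM in TA (log2 1.55, interval 1.40 to 1.72), the largest RPF difference among the members on the scale of the tables. Relative to the median gene Sspn RPF was at 0.96, and Dtna had the largest difference, at -1.21. Relative to the median gene, RNA of Dag1 was at 0.71 and that of Sspn at 0.66, above it but under 2-fold. The RNA ratio of Dag1 to Sspn per kilobase was 2.45 in heart and 2.36 in TA, a difference within counting error, whereas their RPF ratio was 2.55 in heart and 3.60 in TA.

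Sgcd, the sarcoglycan member measured here, had 88.62 RPM of RNA in heart and 65.52 RPM in TA (log2 0.44, interval 0.30 to 0.57). Its RPF was 56.72 RPM in heart and 45.26 RPM in TA (log2 0.32, interval 0.22 to 0.43). Like Dmd, it was below the median gene in both, at -0.26 in RNA and -0.27 in RPF. Dtna was the only member with lower values in heart on the scale of the tables. Its RNA was 79.52 RPM in heart and 104.83 RPM in TA (log2 -0.40, interval -0.53 to -0.27), and its RPF was 83.50 RPM in heart and 127.46 RPM in TA (log2 -0.61, interval -0.69 to -0.54). Relative to the median gene Dtna was at -1.09 in RNA and -1.21 in RPF, at percentiles 8.89 and 8.77 of all genes. Against Dmd per kilobase, Dtna in heart was 0.674 of its TA ratio in RNA (0.616 to 0.737) and 0.623 in RPF (0.586 to 0.662).

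**Figure D2:**
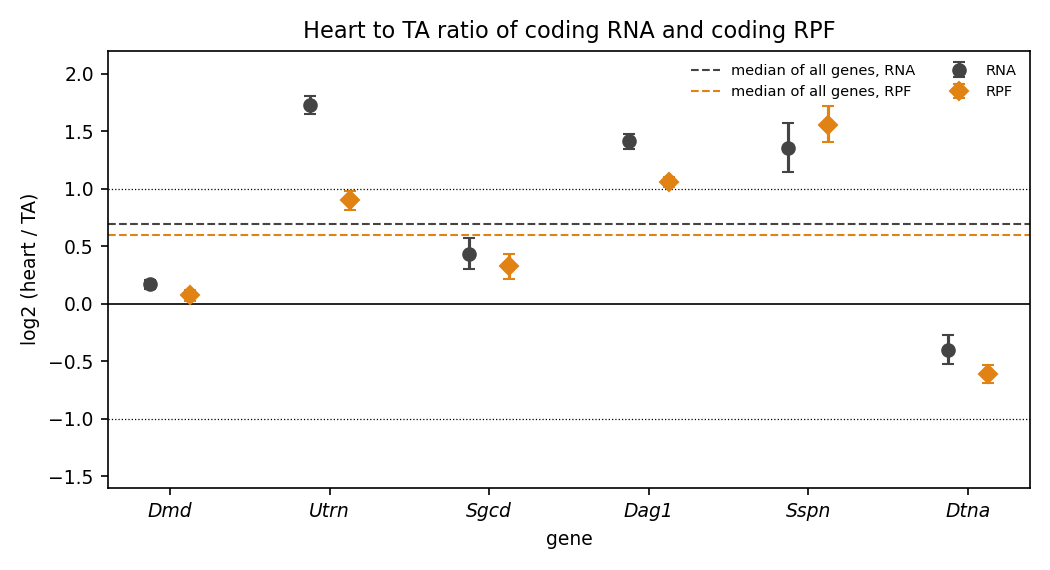
Log2 heart to TA ratio of coding RNA (circles) and coding RPF (diamonds) for the 6 genes, with 95% intervals for counting error, dashed lines at the medians of 9843 genes and dotted lines at 2-fold. Utrn, Dag1 and Sspn lie above both medians, Dmd and Sgcd lie between 0 and the medians, and Dtna lies below 0.

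The second comparison asked how many footprints each mRNA carried for its abundance. Translational efficiency is here log2 of RPF over RNA of the coding sequence, minus the median over genes of that tissue. The raw ratio of RPF to RNA was 0.276 in heart and 0.295 in TA for Dmd, where the median gene had 0.735 and 0.833. On the centred scale, Dmd stood at -1.42 in heart (interval -1.46 to -1.37) and -1.50 in TA (-1.54 to -1.46), at percentiles 10.3 and 9.89. Utrn stood at -1.40 in heart (-1.46 to -1.33) and -0.75 in TA (-0.84 to -0.66), at percentiles 10.6 and 25.0. In heart the paralogs did not differ beyond counting error, and in TA the efficiency of Utrn was higher than that of Dmd. At the 2-fold rule, 2 of 6 members were low in heart (Dmd and Utrn), beside 17.8% of 10680 genes, and 1 of 6 in TA (Dmd), beside 18.7% of 10029 genes. No member was 2-fold high, beside 16% and 15.4% of genes.

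The other members lay within 2-fold of the median gene in both tissues. Dtna stood at 0.51 in heart and 0.54 in TA, and Dag1 at 0.36 and 0.54. Sgcd stood at -0.20 in heart and -0.27 in TA. Sspn was at 0.31 in heart (0.16 to 0.46) and -0.07 in TA (-0.28 to 0.14). Dmd and Utrn also had the longest coding sequences of the members, and across genes efficiency was lower where coding sequences were longer (Spearman rho -0.39 over 10680 genes in heart and -0.35 over 10029 in TA, where genes are not independent and length and read number are shared). Among 97 genes with 8000 to 14000 nt of coding sequence in heart, the median was -1.30, and Utrn ranked 60 and Dmd 61 from the highest. Among 96 such genes in TA the median was -1.18, and Utrn ranked 31 and Dmd 59. With a linear trend on log2 coding length removed, Dmd stood at -0.28 in heart and -0.42 in TA and Utrn at -0.30 and 0.30, so no member was then 2-fold low and Utrn in TA turned sign.

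**Figure D3:**
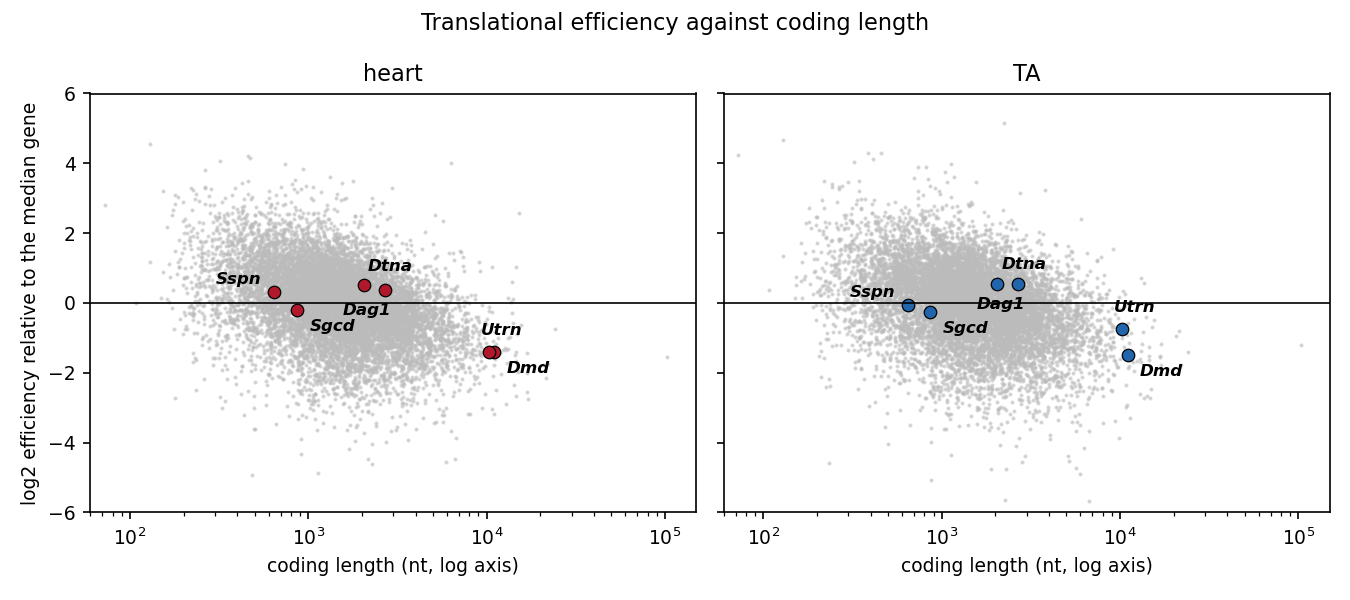
Log2 translational efficiency relative to the median gene (vertical axis) against coding length in nt on a log axis, in heart (left, 10680 genes) and TA (right, 10029 genes), with all genes in grey and the 6 members coloured. Dmd and Utrn sit together at the long end at -1.42 and -1.40 in heart, and in TA Utrn at -0.75 sits above Dmd at -1.50.

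The difference of efficiency between heart and TA was under 2-fold for all 6 members, beside 4.07% of 9635 genes at least 2-fold higher and 2.34% at least 2-fold lower in heart. Utrn had the largest difference. Its efficiency in heart was 0.638 of that in TA (log2 -0.65, interval -0.76 to -0.54), at percentile 8.72 of all genes and the fifth lowest of 89 long genes, whose median was -0.03. Sspn was higher in heart by 0.38 (0.12 to 0.64), Dag1 lower at -0.17 (-0.25 to -0.09) and Dmd higher by 0.08 (0.02 to 0.14). The intervals of Sgcd (0.07) and Dtna (-0.03) included 0. Without centring, Dmd turned to -0.10 and Sgcd to -0.11, while Utrn was at -0.83.

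Markers of other cell types also differed between the tissues. Across all 9843 genes, 35% had at least 2-fold more RNA in heart and the median log2 ratio was 0.70. All 10 endothelial markers had at least 2-fold more RNA in heart, with a sum of 1560 RPM against 400 RPM in TA, and the median of their efficiency difference was -0.59. All 7 macrophage markers listed had at least 2-fold more RNA in heart (277 RPM against 46.8), with a median efficiency difference of -1.03. Of 7 smooth muscle and pericyte markers listed in both tissues, 5 had at least 2-fold more RNA in heart, although the list's sums of 2255 and 2208 RPM, mostly Des, were alike. Of 7 fibroblast markers, 2 did, and their sums were 1527 and 1463 RPM. The median log2 RNA ratio was 1.83 for endothelial, 2.52 for macrophage, 1.26 for smooth muscle and pericyte and 0.60 for fibroblast markers. Median efficiency differences were -0.64 for the smooth muscle and pericyte list and -0.21 for the fibroblast list. The part of these cells in the values of Utrn, Dag1 and Sspn was not tested. In whole tissue, more cells of a type and more RNA per cell cannot be told apart.

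The third comparison asked where reads lay along the transcripts. Densities of UTR reads are given per nucleotide as a percent of the coding density of the same library, without a pseudocount. Footprints dropped past the stop codon in all 6 genes. In heart the 3'UTR density of RPF was 0.637% of the coding density in Dmd, 2.09% in Utrn, 0.222% in Sgcd, 0.245% in Dag1, 0.351% in Sspn and 0.311% in Dtna, beside a median of 1.02% over 10620 genes. In TA it was 0.412% in Dmd, 0.312% in Utrn, 0.125% in Dag1, 0.348% in Sspn and 0.0856% in Dtna, beside a median of 0.477% over 9969 genes. Sgcd had 0 footprints in its TA 3'UTR, with an interval up to 0.513% of the coding density, where 3 reads would give 0.416%. These values rest on at most 26 reads. Utrn in heart, with 14 reads (interval 1.13 to 3.48%), was the only member above the all-gene median, and its 1 read in TA left an interval of 0.00689 to 1.52%, which overlaps. With a pseudocount of 0.1 RPM, all 6 members lay below the median gene in both tissues. That pseudocount, however, raised the all-gene median itself to 2.93% in heart and 2.71% in TA, so this count depends on it.

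RNA of the 3'UTR, by contrast, was well covered. Sspn, whose 3'UTR of 3730 nt is far longer than its coding sequence, had 432.28 RPM of 3'UTR RNA in heart and 147.31 RPM in TA. Its 3'UTR density was 151% of the coding density in heart (137 to 166%) and 131% in TA (117 to 148%), beside medians of 73.9% and 78.6%. It was the only member above these medians. Dmd stood at 34.9% in heart and 37.7% in TA, Utrn at 51.5% and 62.8%, Sgcd at 55.2% and 60.9%, and Dag1 at 70.5% and 77.5%. Dtna was the lowest, at 16.7% in heart (14.4 to 19.4%) and 34.5% in TA (32.0 to 37.2%), intervals that do not overlap.

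Dtna was also the member whose 3'UTR share differed most between the tissues. Its 3'UTR RNA was 25.58 RPM in heart and 69.62 RPM in TA, while its coding RNA was 79.52 and 104.83 RPM. The log2 difference of the relative density, heart minus TA and relative to the median gene, was -0.92 (interval -1.16 to -0.68), at percentile 4.25 of 9588 genes. It was -1.04 without centring, which passes 2-fold. No member passed 2-fold on the centred scale, beside 2.02% of genes higher and 3.56% lower. Sspn stood at 0.32 (0.10 to 0.54), and the intervals of the other 4 members included 0. The table holds 1 model per gene, the Dtna row is described as isoform 1, and reads of isoforms that end elsewhere were not separated. In Dmd, short isoforms from internal promoters share its 3' end, and their reads were not separated either.

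The 5'UTR gave the opposite picture, with Dmd and Dtna the highest members in RNA. RNA density in the 5'UTR of Dmd was 146% of its coding density in heart (130 to 164%) and 197% in TA (181 to 214%). In Dtna it was 148% (126 to 175%) and 128% (114 to 144%). The medians over genes were 17.4% and 17.0%, and Dmd lay at percentiles 98.6 and 99.5 of all genes. Utrn (76.0% and 59.2%), Sgcd (48.9% and 35.0%) and Dag1 (38.7% and 42.6%) were also above these medians. Only Sspn was below them, at 5.29% on 1 read in heart and 14.8% on 2 reads in TA. Footprints in the 5'UTR were most dense in Dtna, at 54.5% of the coding density in heart (47.1 to 62.7%, 213 reads) and 37.4% in TA (32.5 to 42.7%, 226 reads), beside medians of 17.4% and 11.1%. Dag1 carried 435 reads of RPF in its 432-nt 5'UTR in heart and 270 in TA, or 19.9% and 25.3% of its coding density. Dmd stood at 29.5% in heart and 18.03% in TA. Utrn stood at 43.2% in heart (23.0 to 74.1%, 13 reads) and 36.8% in TA (13.4 to 80.0%, 6 reads). These intervals of Utrn include the values of Dtna, so the 2 were not separated beyond counting error. Sgcd stood at 2.18% and 1.56%, on 2 reads and 1 read. Sspn had no footprint in its 27-nt 5'UTR, with an interval up to 6.89% in heart and 20.1% in TA. There 3 reads would give 5.60% and 16.3%. These intervals cover counting only, and whether so short a 5'UTR could hold a footprint was not tested. The same limit applies to the 5'UTR RNA of Sspn and to the 49-nt 5'UTR of Sgcd.

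**Figure D4:**
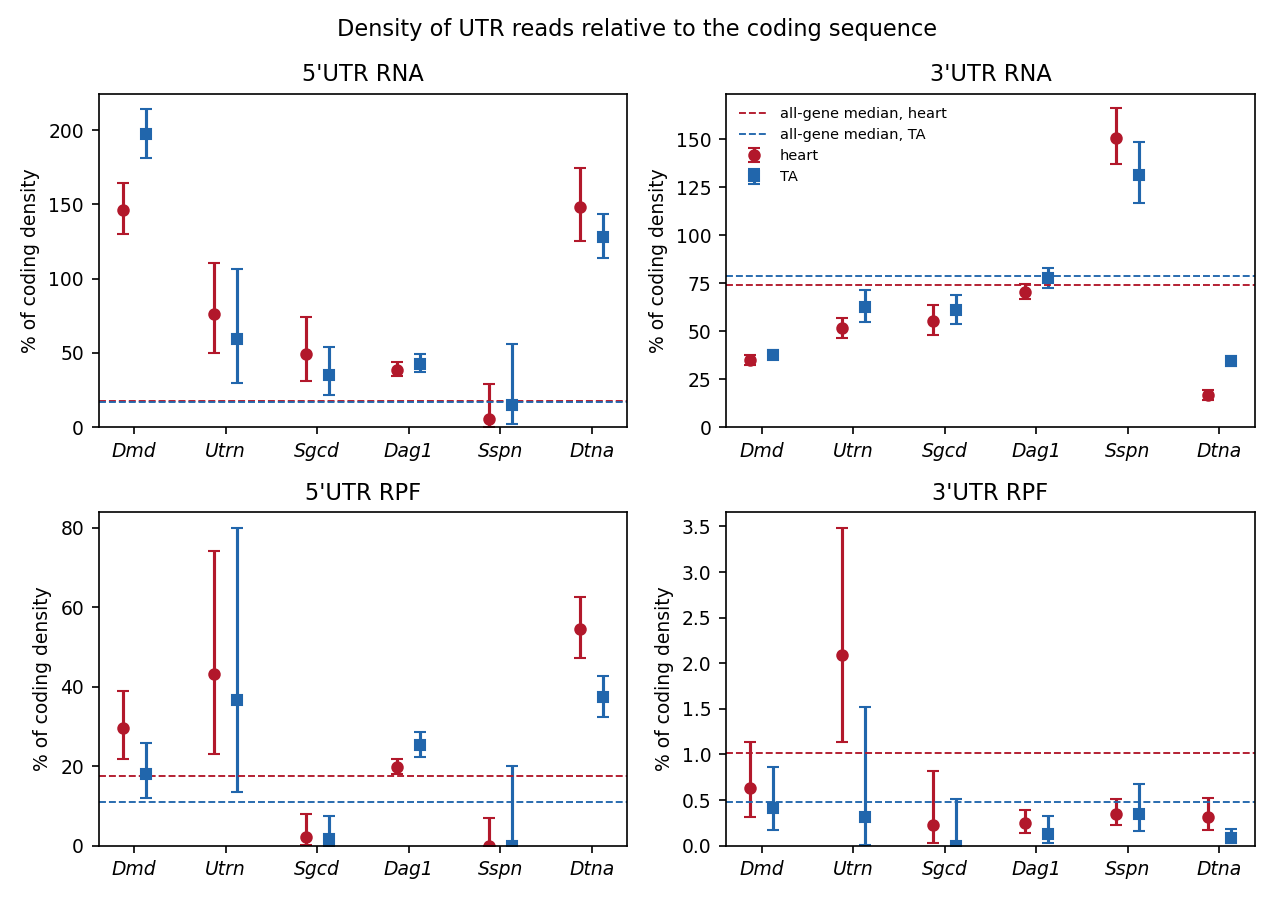
Density of 5'UTR (left) and 3'UTR (right) reads in RNA (top) and RPF (bottom) as a percent of the coding density of the same library, with 95% counting intervals (circles, heart; squares, TA) and all-gene medians as dashed lines. Sspn stands out in 3'UTR RNA (151% and 131%) and Dmd and Dtna in 5'UTR RNA. In 5'UTR RPF the intervals of Utrn include the values of Dtna, and 3'UTR RPF is near 0 for most members.

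Other genes of the complex differed in direction between the tissues. Aqp4, a water channel anchored by syntrophin, was at -1.93 (-2.38 to -1.54) in RNA. Its RPF ratio was -1.30. Sgce was at 1.45 in RNA and 0.41 in RPF, and Sntb2 at 1.61 in RNA and 0.90 in RPF, so both were under 2-fold in RPF. The medians of all genes were 0.70 in RNA and 0.60 in RPF, so Sgce RPF lay below the median gene. Nos1, the nitric oxide synthase that syntrophin holds at the membrane, was listed for TA only, with 120.92 RPM of RNA, and Dtnb, beta-dystrobrevin, for heart only, with 3.96 RPM.

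The list of dystroglycan glycosylation genes had a median RNA ratio of 0.78, close to the 0.70 of all genes. It also holds genes of more general glycosylation (Dpm1, Dpm2, Dpm3, Dolk and Dpagt1). Of its 16 genes listed for both tissues, 5 were at least 2-fold higher in heart and 1 lower. Of all genes, 35% and 3.88% were. The counts in RPF were the same (30.1% and 5.06% of all genes). Large, which builds the laminin-binding glycan, had 111.95 RPM of RNA in heart against 27.02 in TA (log2 2.05, interval 1.89 to 2.22), and its efficiency was low in both, at -1.68 and -1.67. B3gnt1 stood at 1.24, Tmem5 at -0.26, Dpm1, the most abundant per length, at -0.17 and B3galnt2 at -1.40. Gmppb was listed for heart only. Of 14 matrix ligands and partners, 10 had at least 2-fold more RNA in heart and none less (median 1.78), beside 35% of all genes and their median of 0.70. In RPF 9 did (median 1.25), beside 30.1% and 0.60. Lama5 was at 3.28, Agrn at 2.46, Lamb2, the most abundant per length, at 1.73, Col6a1 at 0.45 and Egflam at 0.00.

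The integrin adhesion list had 10 of 13 at least 2-fold higher in heart RNA and none lower (median 1.37). Of all genes, 35% were higher, with a median of 0.70. In RPF 7 were higher (median 1.19), where 30.1% of all genes were with a median of 0.60. Itga5 was at 2.91, Lims1 at 2.51, Itgb1, the most abundant per length in heart, at 1.37, Itgb1bp2, the most abundant in TA, at 0.76, Tln2 at 0.24 and Fermt2 at 0.16. Of 12 cytoskeletal anchors, 2 were higher and 2 lower in heart RNA (median -0.31), beside 35% and 3.88% of all genes. In RPF 2 were higher and 3 lower (median -0.27), beside 30.1% and 5.06%. Synm, an intermediate filament protein, was at -5.01 and Xirp2 at -1.79 in RNA. In RPF Xirp2 was at -0.70, under 2-fold. Ank2 was at 2.10, Xirp1 at 1.81 and Des, the most abundant per length, at -0.39 in RNA. Krt18 was listed for heart only. Of 13 membrane repair genes, 9 had at least 2-fold more RNA in heart and 2 less (median 1.19), against 35% and 3.88% of all genes. In RPF 1 was higher and 2 lower, against 30.1% and 5.06%, and the median of 0.54 was close to the 0.60 of all genes. Ano5 at -6.60 and Capn3 at -5.22, both limb-girdle muscular dystrophy genes, were the lowest, Ehd1 stood at 1.95, Anxa5 at 1.92 and Ahnak, the most abundant per length in heart, at 1.30 in RNA and 0.16 in RPF.

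Of 5700 genes with at least 10 RPM of coding RNA in both tissues, the 3 nearest to Dmd in coding level per kilobase over the 4 libraries were Ecsit, Lypla1 and Cdk2ap1. Their Euclidean distances on the log2 scale were 0.29, 0.43 and 0.44. Ecsit had 23.6 RPM per kilobase of RPF and 86.0 of RNA in heart, and 20.1 and 65.6 in TA.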

How the data were processed

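Per the file headers, the deposited values are RPM (reads per 1000000 mapped reads) for the coding sequence, 5'UTR and 3'UTR of 1 RefSeq model per gene. The submitters' processing notes name Bowtie and the build mm9, and the sources used here do not say how reads with several matches were placed. Since the reference is of another build, coordinates are left out. The coding columns alone summed to between 993831 and 998118 RPM, so the scaling total was near that of the coding reads, and symbols on several rows (5 in heart, 4 in TA) took the row with the highest coding sum. The worth of 1 read was searched for as a step that left nearly all low values at whole multiples of it. In each library 100% of low values were then within 0.0051 RPM, a share that the search itself required to be high. Evenly spread values would give between 9.53% and 29.2% at 1 fixed step. The step gave read counts for exact conditional intervals of ratios of 2 counts. Intervals of efficiencies and of ratios of ratios used a normal approximation on the log scale. No count test could be fitted to these reads, because groups of 1 library have no residual degrees of freedom.

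Log2 values used a pseudocount of 0.1 RPM. Tissue ratios used genes with a mean coding RNA of at least 1 RPM, efficiencies genes with at least 1 RPM in that tissue, and all 6 members passed. The size rule was 2-fold. The members and 6 pathway lists were chosen with earlier results of these data known. Some genes of the list of other complex proteins, and that list's counts, are not reported here. Named list genes were the 2 highest and 2 lowest RNA ratios, the most abundant per length in each tissue and those listed in 1 tissue. The 3 genes nearest to Dmd were taken from the 4 coding levels per kilobase. The choice of 8000 to 14000 nt as long coding sequences and the use of the 5'UTR were made after the values were seen. Alternatives changed the pseudocount, minimum, row choice, centring, scaling and length trend. The steps were tested on simulated reads, where 98% of 200 genes changed 3-fold in efficiency, of 9626 genes, met the rule and 30 unchanged genes did. The simulated reads held counting error only and the same RNA levels in both tissues. They cannot show how often variation between animals or preparations would pass the rule. Python 3.11.15, numpy 2.4.6, pandas 2.3.3, scipy 1.17.1 and matplotlib 3.10.9 were used.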

Additional observations from a re-analysis of the deposited data

Results flagged for a closer look

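The efficiency of Sspn was above the median gene in heart (0.31) and below it in TA (-0.07), so its 2 tissues stood on opposite sides, with a difference of 0.38. The difference was not tested, since each group had 1 library. The TA interval (-0.28 to 0.14) included 0. With the trend on coding length removed both values were below 0, at -0.16 and -0.51.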

How the results depend on the processing

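Scaling moved the counts of members past 2-fold between the tissues. Centred on the median gene, 1 member was higher and 1 lower in heart RNA (3 and 0 as reported), and 0 higher and 1 lower in heart RPF (2 and 0 as reported). Scaled without the 50 most abundant genes, 1 member was higher in RNA, and 1 was higher and 1 lower in RPF. With the linear trend on coding length removed, 0 members were 2-fold low in efficiency in heart (2 as reported) and 0 in TA (1 as reported), and without centring 2 were low in TA. Without centring, 1 member was 2-fold lower in relative 3'UTR RNA density, against 0. The counts of members below the median gene in 3'UTR RPF were 6 in each tissue with the pseudocount and stayed between 5 and 6. Without a pseudocount they were 5 in heart and 6 in TA. Of 270 single member values under all alternatives, 201 stayed within their counting interval, 69 moved out of it and no member past 2-fold changed sign. All 48 values kept their interval with a pseudocount of 0.01 RPM. All 30 also did when rows of a symbol were summed, and these count among the 201. Summing left the members' RNA and RPF ratios as they were, so it could reach members only through the all-gene median. It is therefore no check on their own values. No paired analysis was possible because each group holds 1 library. Depth limits the 3'UTR and 5'UTR footprint values, of which several rest on fewer than 15 reads.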
